A study of Mus musculus with 8 samples.

Results

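The 10 genes described here are the core of the mammalian Hippo pathway: the coactivators Yap1 and Wwtr1 (the protein TAZ), the DNA-binding factors Tead1, Tead2, Tead3 and Tead4, and the kinases Lats1, Lats2, Stk3 (MST2) and Stk4 (MST1). They were taken by symbol from a table of 48440 entries, and all 10 were found and tested. RNA was measured in cardiomyocytes, the contractile muscle cells of the heart, purified from C57BL6/J mouse pups on postnatal day 2. There were 8 libraries, 1 from a male and 1 from a female heart of each of 4 litters, so each sex had 4 libraries and each litter 2. No pup was treated or genetically altered according to the labels, and the design allows 2 comparisons, of the sexes and of the litters. The litters differ only in their number in the labels, so litter and any day of preparation that its hearts shared cannot be told apart.

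In the Hippo pathway, the kinases Stk3 and Stk4 activate Lats1 and Lats2, which phosphorylate YAP and TAZ. Phosphorylated YAP and TAZ are held in the cytoplasm or degraded; unphosphorylated, they enter the nucleus and bind TEAD factors, which bring them to DNA. In the heart the pathway is known for restraining cardiomyocyte division, and YAP activity is known to promote division in fetal and newborn cardiomyocytes. Phosphorylation and location of the proteins are not read by RNA counts, so the values below are transcript levels only.

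Libraries held between 14226342 counts (female of litter 3) and 24910243 counts (male of litter 1). The 8 cardiomyocyte markers examined summed to between 55040 and 74810 CPM (counts scaled to a common library size), against 32.4 to 243 CPM for 8 fibroblast markers, 16.0 to 148 CPM for 8 endothelial markers and 3.79 to 9.14 CPM for 8 macrophage markers, of which Cd163 and Fcgr1 were at 0 in every library. Epicardial markers summed to 14.8 to 23.8 CPM, erythroid markers to 98.9 to 534.8 CPM, Schwann cell and neural markers to 130 to 213 CPM, of which Ncam1 alone held 111 to 194.5 CPM, and mural cell markers to 903 to 1527 CPM, of which Acta2 held 343 to 1036 CPM and Abcc9 391 to 510 CPM. Several of these sums differed between litters. In litter 3 fibroblast markers summed to 32.4 to 51.8 CPM against 107.6 to 243 CPM elsewhere, and genes of dividing cells to 39.0 to 58.0 CPM against 107.5 to 248 CPM elsewhere. In litter 2 endothelial markers summed to 81.3 to 148 CPM against 16.0 to 61.8 CPM elsewhere.

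Genes of this pathway come in related pairs and sets, and reads were 100 bases long, so the stretches that related genes share bear on how well each can be counted. Among the coding sequences of the 4 TEAD genes, identity ran from 71.7% (Tead1 and Tead2) to 75.4% (Tead3 and Tead4), and it was 76.7% for Stk3 and Stk4, 67.2% for Lats1 and Lats2 and 67.9% for Yap1 and Wwtr1. The longest identical run in any of these pairs was 59 bases, in Tead3 and Tead4, and it is shown in capitals because Tead4 was the lowest member and Tead3 one of the higher ones. The stretches are coding bases 1210 to 1316 of Tead3 and 1096 to 1202 of Tead4, 5′ to 3′, from GENCODE M21 on GRCm38.
Tead3: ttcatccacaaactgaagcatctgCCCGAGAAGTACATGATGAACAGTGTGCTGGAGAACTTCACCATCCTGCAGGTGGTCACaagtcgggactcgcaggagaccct
Tead4: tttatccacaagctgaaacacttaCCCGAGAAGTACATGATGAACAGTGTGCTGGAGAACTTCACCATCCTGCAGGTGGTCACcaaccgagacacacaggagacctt
The shared run is shorter than a read, and no 100-base window of the longest transcripts of Tead3, Tead4 or 7 of the other members occurred in a transcript of another gene. Lats2 was the exception: 56.11% of its windows also occur in Gm49361, a same-strand locus of the annotation that is not an entry of the count table, so how Lats2 reads in that stretch were counted is uncertain.

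The members lie on 9 chromosomes of GRCm38 by GENCODE M21, with Tead1 and Tead2 both on chromosome 7. Yap1 spans chr9:7931999-8004596 on the minus strand and Wwtr1 chr3:57455649-57575910 on the minus strand. Tead1 spans chr7:112679318-112906807 (plus), Tead2 chr7:45215753-45233644 (plus), Tead3 chr17:28331671-28350817 (minus) and Tead4 chr6:128224288-128300823 (minus). Lats1 spans chr10:7681214-7716460 (plus), Lats2 chr14:57689662-57758388 (minus), Stk3 chr15:34875496-35178921 (minus) and Stk4 chr2:164070322-164155524 (plus). Exons of Lats2 overlapped those of the same-strand locus Gm49361 over 42.39% of their bases. Exons of Yap1 overlapped those of the opposite-strand gene Gm20416 over 1.25% of their bases and exons of Tead2 those of Cd37 over 0.27%.

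TEAD factors are known to bind the letters GGAATG. On the other strand the same site reads CATTCC, and both were searched in the 250 bases before each gene's start in RefSeq GRCm38.p6. They were found in 14.4% of the 27025 promoters of the table. Of the 7 members with a promoter in the table, Tead3, Wwtr1 and Yap1 held them, and of the 13 with a promoter in the table among 20 genes used as readouts of YAP, TAZ and TEAD activity, Amotl2, Ankrd1, Axl, Ccn1 and Crim1 did. The promoters of Ankrd1 (chr19:36119845-36120094, minus strand), Amotl2 (chr9:102717554-102717803, plus strand) and Ccn1 (chr3:145649986-145650235, minus strand) are shown 5′ to 3′ because these readouts are described below, with the letters in capitals.
Ankrd1: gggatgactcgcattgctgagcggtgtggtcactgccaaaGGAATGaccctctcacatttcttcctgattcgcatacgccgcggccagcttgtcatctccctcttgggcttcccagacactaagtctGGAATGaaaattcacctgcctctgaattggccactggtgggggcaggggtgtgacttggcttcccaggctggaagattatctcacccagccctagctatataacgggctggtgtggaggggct
Amotl2: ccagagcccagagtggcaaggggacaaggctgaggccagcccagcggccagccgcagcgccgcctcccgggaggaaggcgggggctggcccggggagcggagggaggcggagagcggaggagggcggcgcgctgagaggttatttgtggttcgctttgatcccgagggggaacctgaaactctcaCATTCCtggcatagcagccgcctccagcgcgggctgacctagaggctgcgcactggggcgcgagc
Ccn1: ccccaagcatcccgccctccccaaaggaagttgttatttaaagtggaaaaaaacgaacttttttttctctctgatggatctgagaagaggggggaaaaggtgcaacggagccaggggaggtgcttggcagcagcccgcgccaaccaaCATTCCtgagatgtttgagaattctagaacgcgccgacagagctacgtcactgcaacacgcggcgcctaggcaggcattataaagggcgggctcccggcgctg
The matches begin 210 and 123 bases before the start of Ankrd1, 65 before that of Amotl2 and 103 before that of Ccn1. A match is a description of letters and was not tested as a binding site.

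Per length of transcript, Tead1 was the most abundant member and Tead4 the least. Levels divided by the length of the longest transcript, in CPM per kb and as mean ± SD over the 8 libraries, were 30.3 ± 4.00 for Tead1, 21.4 ± 3.10 for Tead3, 17.9 ± 1.02 for Yap1, 17.0 ± 1.79 for Wwtr1 and 15.9 ± 2.59 for Tead2. The kinases followed, with 10.6 ± 1.12 for Lats2, 6.60 ± 0.601 for Lats1, 6.26 ± 0.561 for Stk3 and 5.04 ± 0.508 for Stk4, and Tead4 came last with 0.247 ± 0.165. By this length every kinase mean lay below those of the coactivators and of Tead1, Tead2 and Tead3. Between neighbours in this order, the ranges over the 8 libraries were apart only for Lats2 above Lats1 and for Stk4 above Tead4. By the mean over the 8 libraries, Tead1 stayed first and Tead4 last under 4 choices of transcript length, while the order of the other 8 members depended on that choice. By mean transcript length, for example, Tead2 had 62.2 CPM per kb and lay above Yap1 with 46.1 and Tead3 with 39.1, Lats2 with 29.5 lay above Wwtr1 with 17.3, and Lats1 with 9.18 lay below Stk3 with 9.68 and Stk4 with 11.8.

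No member passed the test between males and females. Yap1, for example, averaged 95.6 ± 1.17 CPM over the males and 93.6 ± 7.96 CPM over the females (SD, 4 libraries each), and Tead1 averaged 306 ± 42.6 CPM and 297 ± 42.7 CPM. The sexes overlapped for each of the 10 members. By edgeR's quasi-likelihood test, 0 of 10 members passed an adjusted p of 0.05 (adjusted over all 13771 genes tested), 0 had an unadjusted p under 0.05 and DESeq2 called 0; over all genes 6 were called, or 0.0436%. Fitted log2 differences, male minus female, ran from -0.13 (SE 0.62) for Tead4 to 0.16 (SE 0.09) for Stk3, and their standard errors were at most 0.15 for the members other than Tead4.

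Stk3, an upstream kinase, was the one member higher in the male of every litter. Its level was 21.5, 20.4, 23.1 and 22.1 CPM in the males of litters 1 to 4 and 20.9, 18.0, 21.2 and 17.9 CPM in their sisters. Males averaged 21.8 ± 1.15 CPM and females 19.5 ± 1.82 CPM (SD, n = 4 each). With litter as a block, which compares each male with the female of the same litter, the log2 difference of Stk3 was 0.16 (SE 0.07), with an unadjusted p of 0.0476 and an adjusted p of 0.428 by edgeR. In that blocked fit 0 members and 29 of all genes (0.211%) were called. Markers of other cells moved with sex in it: 5 of 8 fibroblast markers (Col1a1, Col1a2, Col3a1, Dcn, Postn) were higher in males, with a median log2 difference of 0.70 over the 8, and 1 of 8 endothelial markers (Cldn5) was lower, with a median of -0.71. The 7 epicardial markers tested had a median of 0.81 and did not pass. Their part in the values of Stk3 was not tested. Stk3 is 1 of 10 members looked at in this way, and Tead2 was lower in the male of every litter.

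Most members differed between litters. The edgeR test of all 4 litters together, in a model with sex, called 6 of 10 members, namely Tead1, Tead2, Tead3, Tead4, Wwtr1 and Lats2, beside 4427 of all 13771 genes, or 32.1%. The other 4 members, Lats1, Stk4, Stk3 and Yap1, did not pass. The median fitted range between the lowest and highest litter was 0.35 on the log2 scale for the members and 0.37 for all genes tested. In bulk RNA, fewer cells of a type and less RNA per cell cannot be told apart. Each litter has 2 libraries; where 1 of them is left out below, the remaining one was assumed to vary like those of the other litters.

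**Figure D1:**
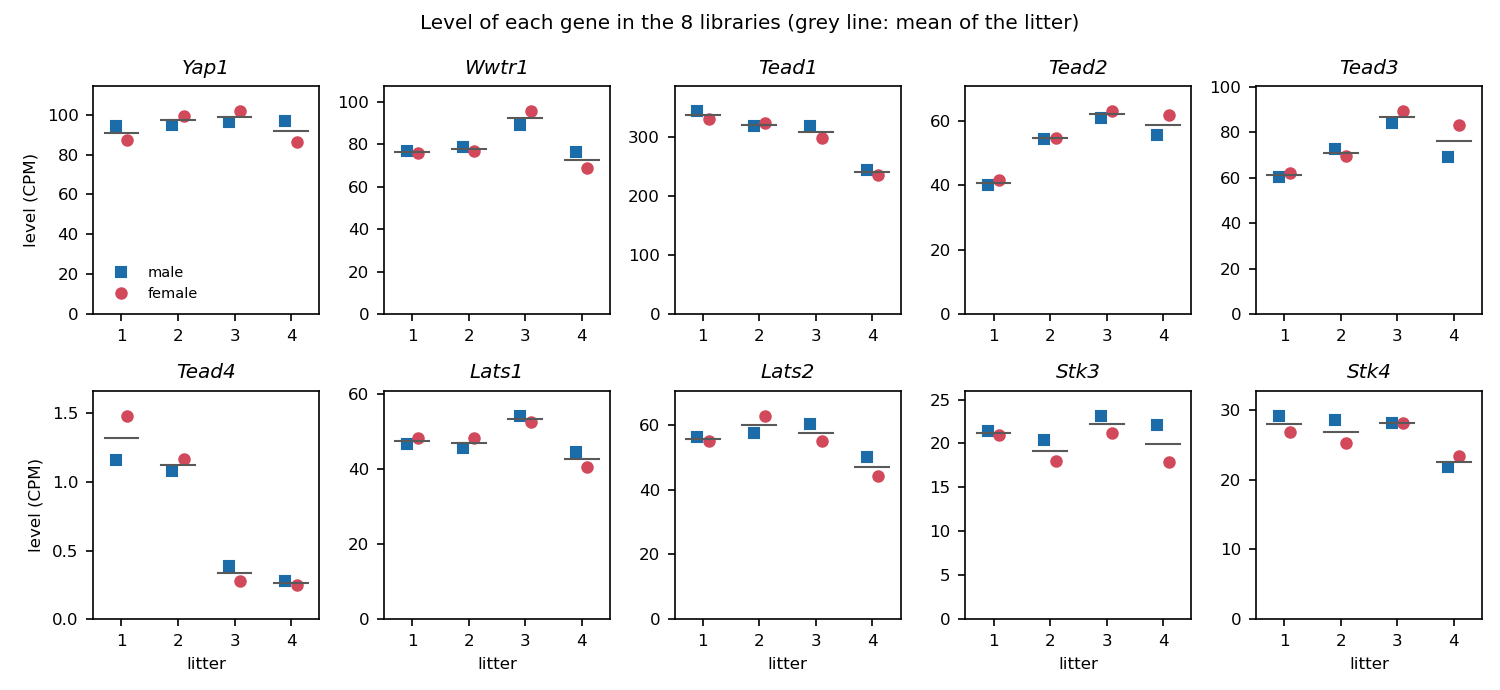
Level of each member in CPM (vertical axes, each from 0) in the 8 libraries by litter, with squares for males, circles for females and a grey line for the mean of the litter. The points of Tead1 in litter 4 lie at 236 and 245 CPM below all others, and those of Tead2 in litter 1 at 40.0 and 41.6 CPM below all others.

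Tead1, the TEAD gene with the highest mean level, was lowest in litter 4. The male and female libraries held 343 and 331 CPM in litter 1, 318 and 323 CPM in litter 2, 319 and 298 CPM in litter 3, and 245 and 236 CPM in litter 4. Both libraries of litter 4 lay below, and both of litter 1 above, all libraries of the other litters. Tead1 fell in litter 4 against the mean of the other litters by 0.42 on the log2 scale (SE 0.06, adjusted p = 0.00269). This call held in 17 of 17 alternative fits, with differences of -0.50 to -0.39. In litter 1 Tead1 was higher by 0.23 (SE 0.05, adjusted p = 0.0175), a call that was lost without the male of litter 1 (0.22, adjusted p = 0.235), without its female (0.23, adjusted p = 0.227) and without litter 4 (0.10, adjusted p = 0.258). The test over all litters gave a range of 0.49 (adjusted p = 0.00128), and without litter 4 the range was 0.12 (adjusted p = 0.32).

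Tead2, a TEAD gene known from the early embryo, was lowest in litter 1. It measured 40.0 and 41.6 CPM in the male and female of litter 1, 54.3 and 54.8 CPM in litter 2, 61.0 and 62.9 CPM in litter 3, and 55.5 and 61.9 CPM in litter 4. Litter 1 did not overlap the others, while litters 3 and 4 overlapped. The log2 difference of litter 1 from the mean of the others was -0.52 (SE 0.07, adjusted p = 0.000473), and it passed in 17 of 17 alternative fits, between -0.56 and -0.47. Tead2 was higher in litter 3 by 0.29 (SE 0.06, adjusted p = 0.0056), which did not pass without the male of litter 3 (0.27, adjusted p = 0.0709), without its female (0.30, adjusted p = 0.0554) or without litter 1 (0.13, adjusted p = 0.249). Over all litters the range was 0.60 (adjusted p = 0.000814), and it was 0.18 without litter 1 (adjusted p = 0.284).

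Tead3, a family member also known from placenta, was lowest in litter 1, as Tead2 was, and highest in litter 3. Its male and female levels were 60.2 and 62.1 CPM in litter 1, 72.6 and 69.8 CPM in litter 2, 84.1 and 89.3 CPM in litter 3, and 69.4 and 83.3 CPM in litter 4. Litters 1 and 3 each lay outside the range of the other libraries, and the libraries of litters 2 and 4 overlapped. Against the mean of the other litters the log2 difference was -0.35 in litter 1 (SE 0.07, adjusted p = 0.00831) and 0.32 in litter 3 (SE 0.07, adjusted p = 0.00503). The range over litters was 0.50 (adjusted p = 0.00605), and it did not pass without litter 1 (0.28, adjusted p = 0.0985) or without litter 3 (0.32, adjusted p = 0.0726). The call in litter 1 was lost without its male (-0.37, adjusted p = 0.109), without its female (-0.32, adjusted p = 0.172) and without litter 3 (-0.27, adjusted p = 0.0628). The call in litter 3 was lost without its male (0.32, adjusted p = 0.0505), without its female (0.32, adjusted p = 0.0614) and without litter 1 (0.23, adjusted p = 0.0602).

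Tead4, known from the first lineage choice of the embryo and from skeletal muscle, was close to the limit of detection. The male and female libraries held 29 and 36 counts in litter 1, 26 and 26 in litter 2, 9 and 4 in litter 3, and 5 and 6 in litter 4. In CPM these were 1.16 and 1.48, 1.08 and 1.17, 0.390 and 0.275, and 0.279 and 0.252. The 4 libraries of litters 1 and 2 were all above the 4 of litters 3 and 4. The range over litters was 2.30 on the log2 scale (adjusted p = 0.0032), and it passed in each of the 15 alternative fits that tested Tead4. The log2 difference was 1.48 in litter 1 (SE 0.30, adjusted p = 0.00751) and -1.59 in litter 4 (SE 0.41, adjusted p = 0.0329), while 1.18 in litter 2 (SE 0.31, adjusted p = 0.0561) and -1.07 in litter 3 (SE 0.41, adjusted p = 0.0706) did not pass.
Calls of Tead4 in single litters were fragile at these counts. The call in litter 1 was lost without its male (1.68, adjusted p = 0.0724), without its female (1.27, adjusted p = 0.189) and without litter 4 (1.07, adjusted p = 0.0501). The call in litter 4 was lost without the male (-1.64, adjusted p = 0.0545) or female of litter 1 (-1.50, adjusted p = 0.0823), the male (-1.59, adjusted p = 0.0526) or female of litter 2 (-1.58, adjusted p = 0.0528), the male of litter 3 (-1.46, adjusted p = 0.0886) and the male (-1.72, adjusted p = 0.144) or female of litter 4 (-1.44, adjusted p = 0.227).

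In litter 1 Tead1 and Tead4 were thus higher and Tead2 and Tead3 lower, and the balance among the TEAD genes differed between litters. Of the summed TEAD level per kb, Tead1 made up 53.74% and 51.88% in the male and female of litter 1, 46.07% and 46.84% in litter 2, 42.97% and 40.14% in litter 3, and 40.16% and 35.82% in litter 4. Tead2 made up 18.39% and 19.15% in litter 1 and 26.73% and 27.51% in litter 4. Tead3 made up 27.28% and 28.22% in litter 1, 30.38% and 29.29% in litter 2, 32.77% and 34.85% in litter 3, and 32.96% and 36.55% in litter 4. Tead1 was above Tead3 in 7 of 8 libraries by the longest transcript and in 5 of 8 by the longest protein-coding transcript. By mean transcript length and by the union of exons it was above Tead3 in 8 of 8. In the female of litter 4 Tead3 was above Tead1 by the longest transcript (24.2 against 23.7 CPM per kb) and the longest protein-coding transcript (30.0 against 23.7). There it was below Tead1 by mean transcript length (44.1 against 94.8) and by the union of exons (12.4 against 17.4). Tead4 never passed 0.752%. The balance can also be read without any scaling between libraries, from the ratio of 2 counts inside each library, a measure chosen after the values were seen. The count of Tead2 over that of Tead1 was 0.117 and 0.126 in litter 1, 0.170 and 0.170 in litter 2, 0.191 and 0.211 in litter 3, and 0.227 and 0.262 in litter 4. The litters did not overlap in this ratio. The count of Tead3 over that of Tead1 was 0.175 and 0.188 in litter 1 and 0.284 and 0.353 in litter 4, with litters 3 and 4 overlapping. These ratios are given as a description, with no test.

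**Figure D2:**
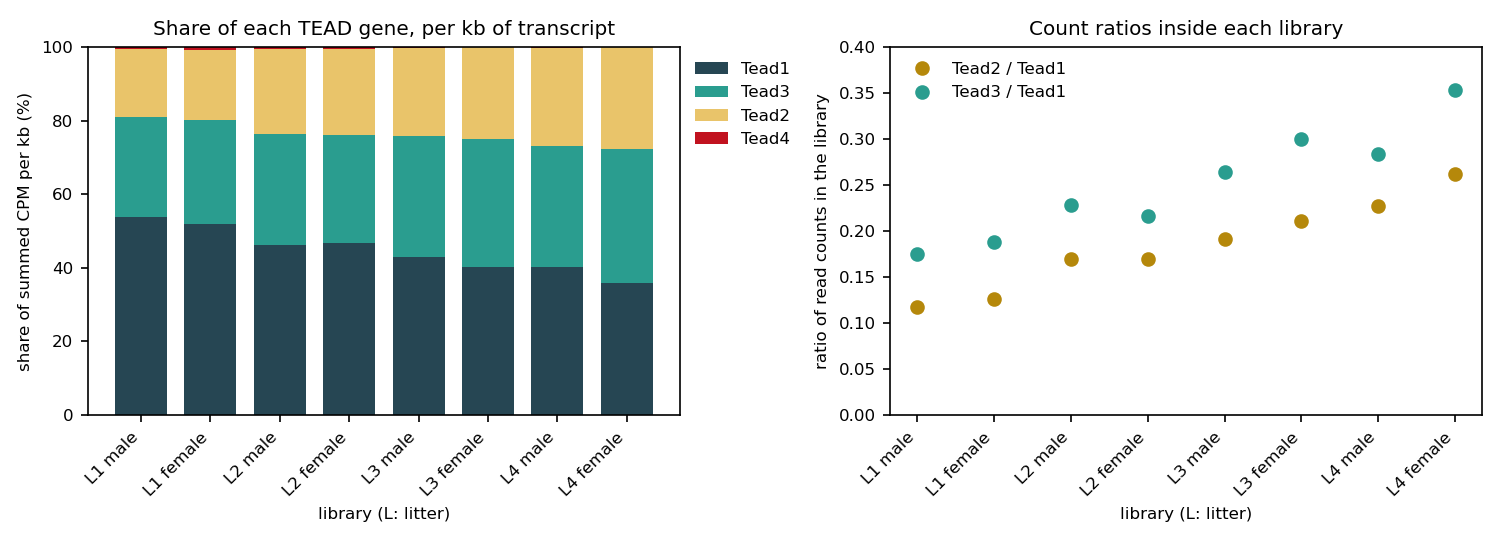
Left, the share of each TEAD gene in the summed TEAD level per kb of transcript (percent, vertical axis from 0) in each library; right, the ratio of the counts of Tead2 (ochre) and Tead3 (green) to those of Tead1 in the same library. The share of Tead1 runs from 53.74% in the male of litter 1 to 35.82% in the female of litter 4, and the ratio of Tead2 to Tead1 from 0.117 to 0.262.

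Of the coactivators, Yap1 was the steadiest member and Wwtr1 was higher in litter 3. Yap1 measured 94.5 and 87.1 CPM in the male and female of litter 1, 94.8 and 99.3 CPM in litter 2, 96.2 and 101.6 CPM in litter 3, and 96.9 and 86.5 CPM in litter 4. All litters overlapped, and the coefficient of variation over the 8 libraries was 5.68%, the lowest of the 10 members. Its range over litters was 0.12 on the log2 scale (adjusted p = 0.484), and it passed in 0 of 18 alternative fits. Wwtr1 measured 76.8 and 76.0 CPM in litter 1, 78.6 and 76.9 CPM in litter 2, 88.9 and 95.4 CPM in litter 3, and 76.2 and 68.8 CPM in litter 4. Both libraries of litter 3 lay above the other 6. The log2 difference of Wwtr1 in litter 3 was 0.29 (SE 0.06, adjusted p = 0.00648), and it did not pass without the female of that litter (0.20, adjusted p = 0.165). Over all litters the range was 0.35 (adjusted p = 0.0233); the call was lost without the male (0.35, adjusted p = 0.0562) or female of litter 1 (0.35, adjusted p = 0.0568), without the female of litter 3 (0.27, adjusted p = 0.229) and without litter 3 (0.10, adjusted p = 0.605). Counts of Wwtr1 over those of Yap1 in the same library were 0.923 and 0.939 in litter 3 and between 0.774 and 0.873 in the others.

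The kinases had smaller fitted ranges over litters than the TEAD genes, 0.21 to 0.36 against 0.49 to 2.30, and their calls were in litters 3 and 4. Lats2, which phosphorylates YAP and TAZ, measured 56.2 and 54.9 CPM in the male and female of litter 1, 57.5 and 62.6 CPM in litter 2, 60.2 and 55.0 CPM in litter 3, and 49.9 and 44.2 CPM in litter 4. Litter 4 lay below all other libraries, with a log2 difference of -0.30 (SE 0.07, adjusted p = 0.0267). That call was lost without the male (-0.30, adjusted p = 0.0591) or female of litter 1 (-0.29, adjusted p = 0.065) and without the male (-0.38, adjusted p = 0.065) or female of litter 4 (-0.22, adjusted p = 0.248). The range over litters was 0.36 (adjusted p = 0.0348). This call was lost without the male (0.36, adjusted p = 0.0696) or female of litter 1 (0.36, adjusted p = 0.0691), the female of litter 2 (0.30, adjusted p = 0.0534), the male of litter 3 (0.35, adjusted p = 0.0538), the female of litter 4 (0.27, adjusted p = 0.244), the whole of litter 4 (0.11, adjusted p = 0.569) and without a sex term (0.35, adjusted p = 0.0597).

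Lats1, the other LATS kinase, had its highest values in litter 3 and its lowest in litter 4. It measured 46.7 and 48.3 CPM in litter 1, 45.5 and 48.3 CPM in litter 2, 54.1 and 52.5 CPM in litter 3, and 44.6 and 40.5 CPM in litter 4. Both libraries of litter 3 lay above and both of litter 4 below all others. The log2 difference in litter 3 was 0.23 (SE 0.07, adjusted p = 0.0269), and the range over litters of 0.33 did not pass (adjusted p = 0.0532). The call in litter 3 was lost with DESeq2 (0.23, adjusted p = 0.061), without the male of litter 1 (0.21, adjusted p = 0.0742), without the male (0.21, adjusted p = 0.195) or female of litter 3 (0.24, adjusted p = 0.127) and without litter 4 (0.18, adjusted p = 0.0563). The range passed in 7 of 18 alternative fits, among them those without the female of litter 2 (0.33, adjusted p = 0.0472), the male of litter 4 (0.41, adjusted p = 0.0462) and litter 2 (0.33, adjusted p = 0.0274).

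Of the upstream kinases, Stk4 was lowest in litter 4 and Stk3 showed no litter outside the range of the others. Stk4 measured 29.1 and 26.8 CPM in litter 1, 28.5 and 25.3 CPM in litter 2, 28.1 and 28.0 CPM in litter 3, and 21.8 and 23.3 CPM in litter 4. Its log2 difference in litter 4 was -0.29 (SE 0.08, adjusted p = 0.0413), and 10 of 17 alternative fits did not pass, with adjusted p between 0.0516 without litter 3 and 0.337 without the male of litter 4 (-0.19). The others that left out libraries and lost the call were those without the male (-0.28, adjusted p = 0.0959) or female of litter 1 (-0.31, adjusted p = 0.0754), the male of litter 2 (-0.26, adjusted p = 0.0803), the female of litter 3 (-0.28, adjusted p = 0.0577), the female of litter 4 (-0.39, adjusted p = 0.0772) and litter 1 (-0.28, adjusted p = 0.0789). The range over litters was 0.31 for Stk4 (adjusted p = 0.0668; 0.32 and 0.041 without litter 2, 0.40 and 0.0241 with library size scaling) and 0.21 for Stk3 (adjusted p = 0.325). In counts, Stk4 over Stk3 was 0.985 in the male of litter 4 and between 1.22 and 1.40 in the other 7 libraries.

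Read by litter, the calls among members had different signs in different litters. In litter 1, 2 of 10 members were higher (Tead1, Tead4) and 2 lower (Tead2, Tead3), beside 7.86% of all genes higher and 5.41% lower (13.3% in all). Litter 2 had 0 members called by edgeR, with 3 at an unadjusted p under 0.05 (Tead1, Tead4, Lats2) and 0 called by DESeq2, beside 4.18% of all genes (3.3% higher and 0.879% lower). In litter 3, 4 members were higher (Wwtr1, Tead2, Tead3, Lats1) and 0 lower, beside 13.6% of all genes higher and 14.8% lower (28.3% in all). In litter 4, 4 members were lower (Tead1, Tead4, Lats2, Stk4) and 0 higher, beside 5.8% of all genes lower and 4.71% higher (10.5% in all). The 4 litter comparisons share libraries, so they are not independent.
Genes of dividing cells and markers of other cells also moved with these litters. Of 8 genes of dividing cells, 8 were higher in litter 1, 4 higher in litter 2 and 8 lower in litter 3. Bulk counts do not tell whether the dividing cells were cardiomyocytes or other cells. Of 8 fibroblast markers, 3 were higher in litter 1, 6 higher in litter 2, 6 lower in litter 3 and 6 higher in litter 4. Of 8 endothelial markers, 8 were higher in litter 2 and 5 lower in litter 3. Of 8 mural markers, 1 was higher and 2 lower in litter 1, 3 were higher in litter 2, 4 lower in litter 3, and 3 higher and 1 lower in litter 4. Of 7 epicardial markers tested, 2 were higher in litter 2, 1 higher and 3 lower in litter 3 and 1 lower in litter 4, and of 7 erythroid markers tested 3 were higher in litter 3. Of 3 Schwann cell and neural markers tested, 1 was higher in litter 3 and 1 lower in litter 4, and of 2 macrophage markers tested, 1 was lower in litter 4. In litter 3 the 8 cardiomyocyte markers summed to 55040 to 55980 CPM against 64440 to 74810 CPM elsewhere, with Myh6, Actc1 and Myl3 lower, Nppa higher by a log2 difference of 2.26 (adjusted p = 2.1e-05), and a median difference of -0.02. In litter 4 Ryr2 was lower, with a log2 difference of -0.41 (adjusted p = 0.00297) and Actc1, Myl3 and Tnni3 were higher, and in litter 1 Ryr2 was higher by 0.18 (adjusted p = 0.0489) and Nppa lower, at -0.97 (adjusted p = 0.0237). Their part in the differences of the members was not tested. With plain library size in place of TMM scaling, the split over all genes in litter 3 was 2419 higher and 1698 lower against 1871 and 2032, and in litter 4 it was 262 higher and 1497 lower against 648 and 799. The signs of the called members in litters 3 and 4 were the same under that scaling. It also moved the median log2 difference of all genes, from 0.00012 to 0.044 in litter 3 and from 0.013 to -0.063 in litter 4. These shifts run the same way as the called members, so the switch was not a test of their signs.

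**Figure D3:**
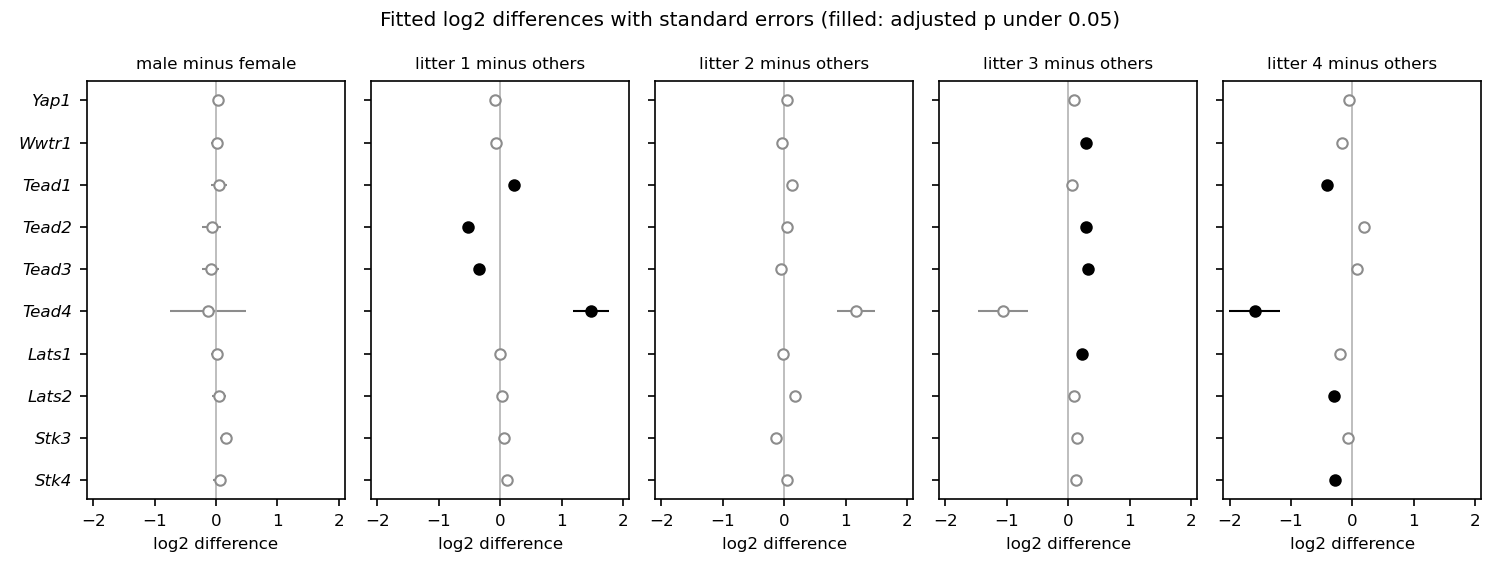
Fitted log2 difference of each member (horizontal axis) for males minus females and for each litter minus the mean of the other 3, with bars for 1 standard error and filled points for an adjusted p under 0.05 by edgeR. No point is filled for sex or for litter 2, and Tead4 has the widest bars, up to 0.62 for sex.

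The other genes of the pathway were read from a list of 26 regulators, of which 24 had enough counts to be tested; Vgll2 was at 0 in every library and Vgll3 was too low. By litter 10 of the 24 passed (Amot, Amotl1, Dchs1, Fat4, Limd1, Nf2, Ptpn14, Taok1, Taok2, Wwc2). By sex, with no litter term, 0 passed in edgeR or DESeq2, with 0 at an unadjusted p under 0.05 in either. With litter as a block, 0 of the 24 passed by sex in edgeR and 4 had an unadjusted p under 0.05, beside 1592 of all 13771 genes. Over all genes 32.1% passed by litter, and the median range over litters was 0.34 on the log2 scale for the regulators and 0.37 for all genes. Among the partners that sit closest to the kinases, the scaffold Sav1 measured 41.1 ± 1.88 CPM (SD, n = 8), with a range of 0.13 (adjusted p = 0.467), and the LATS cofactor Mob1a at 19.3 ± 1.10 CPM, with a range of 0.16 (adjusted p = 0.515). Mob1b, its paralog, measured 121 ± 13.9 CPM, with a range of 0.30 that did not pass (adjusted p = 0.0545) but passed in 6 of 18 alternative fits, among them DESeq2 (0.31, adjusted p = 0.0485), RLE scaling (0.31, adjusted p = 0.0437) and those without litter 1 (0.30, adjusted p = 0.0443) or litter 2 (0.30, adjusted p = 0.0339). Mob1b was higher in litter 3 by 0.21 (adjusted p = 0.0298), a call lost without a sex term (0.21, adjusted p = 0.111), without the male of litter 1 (0.17, adjusted p = 0.0932), the female of litter 2 (0.19, adjusted p = 0.0548), the male (0.16, adjusted p = 0.264) or female of litter 3 (0.25, adjusted p = 0.0961) and litter 4 (0.17, adjusted p = 0.0777). Vgll4, which competes with YAP for TEAD factors, measured 19.4 ± 2.29 CPM, with a range of 0.36 that did not pass (adjusted p = 0.0653) except with library size scaling (0.44, adjusted p = 0.0297).

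Nf2 (merlin), which recruits LATS kinases to the membrane, was lower in litter 3, where Wwtr1, Tead2, Tead3 and Lats1 were higher. It measured 156.5 and 128.3 CPM in the male and female of litter 3 and between 163.7 and 181.3 CPM in the other 6 libraries, with no overlap. The log2 difference was -0.28 (adjusted p = 0.00879), and it did not pass without the female of litter 3 (-0.17, adjusted p = 0.222). Its range over litters was 0.34 (adjusted p = 0.026), and that call was lost without a sex term (0.34, adjusted p = 0.0564), without the male (0.40, adjusted p = 0.0557) or female of litter 1 (0.29, adjusted p = 0.0915), the female of litter 3 (0.23, adjusted p = 0.204), litter 1 (0.29, adjusted p = 0.0645) and litter 3 (0.13, adjusted p = 0.416). The widest ranges in the list belonged to the protocadherins Dchs1 and Fat4, a ligand and receptor pair at the cell surface, and to the YAP-binding scaffold Amot. All of these were low in level, at most 7.19 CPM in any library. The lowest adjusted p of the list belonged to Amotl1, a paralog of Amot at 53.4 to 114.6 CPM, with a range of 0.98 (adjusted p = 2.58e-05). In litter 3 Amotl1 was higher by 0.86 (adjusted p = 4.04e-06), while Amot was lower there (-0.78, adjusted p = 0.0246). The calls of Amotl1 were not followed one by one through the alternative fits.
Dchs1 measured 1.88 and 4.23 CPM in litter 1, 4.57 and 7.19 CPM in litter 2, 0.954 and 0.481 CPM in litter 3, and 2.23 and 1.97 CPM in litter 4. Its range was 2.87 (adjusted p = 0.00136), and it passed in 18 of 18 alternative fits. The log2 difference was 1.77 in litter 2 (adjusted p = 0.00223), lost without its female (1.59, adjusted p = 0.0783), and -2.06 in litter 3 (adjusted p = 0.00186). Fat4 was highest in litter 2, at 4.90 and 5.21 CPM against 1.76 to 3.91 CPM elsewhere, with a range of 1.34 (adjusted p = 0.0161) that did not pass without the female of litter 2 (1.16, adjusted p = 0.132) or without litter 2 (0.45, adjusted p = 0.534). Of 8 markers each, 8 endothelial, 6 fibroblast and 3 mural ones were also called higher in litter 2. In litter 3, 5, 6 and 4 of them were called lower. Fibroblast markers were also called higher in litter 1 (3 of 8) and litter 4 (6 of 8), where neither Dchs1 nor Fat4 was called. The part of these markers in the differences of Dchs1 and Fat4 was not tested. Amot was highest in litter 1, at 4.25 and 3.37 CPM against 1.38 to 2.65 CPM elsewhere, with a range of 1.19 (adjusted p = 0.0212). That call was lost with DESeq2 (1.20, adjusted p = 0.0902), without the male (1.02, adjusted p = 0.167) or female of litter 1 (1.33, adjusted p = 0.0562), the female of litter 3 (1.03, adjusted p = 0.0703), litter 1 (0.65, adjusted p = 0.232) and litter 3 (0.70, adjusted p = 0.124).

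Genes known as readouts of YAP, TAZ and TEAD activity came from a list of 20, of which 18 were tested and Fjx1 and Foxf2 were too low. By litter 6 of 18 passed (Amotl2, Arhgef17, Dock5, Igfbp3, Nt5e, Rbms3), near the 32.1% of all genes, and their median range was 0.51 against 0.37 for all genes. By sex, with no litter term, 0 passed in edgeR and in DESeq2, with 2 at an unadjusted p under 0.05 in each. With litter as a block, 0 of 18 passed by sex in edgeR and 6 had an unadjusted p under 0.05, beside 1592 of all 13771 genes. In litter 1 the readouts had a median log2 difference of 0.22, with 4 of 18 called higher and 0 lower, beside 7.86% of all genes higher and 5.41% lower. In litter 2 the median was 0.19, with 3 of 18 higher and 0 lower, beside 3.3% and 0.879% of all genes. In litter 3 the median was -0.15, with 1 of 18 higher and 4 lower, beside 13.6% and 14.8% of all genes. In litter 4 the median was -0.18, with 0 of 18 higher and 2 lower, beside 4.71% and 5.8% of all genes. DESeq2 called 2 readouts in litter 1 (Amotl2, Nt5e), 3 in litter 2 (Amotl2, Arhgef17, Igfbp3), 4 in litter 3 (Arhgef17, Igfbp3, Nt5e, Rbms3) and 1 in litter 4 (Amotl2). Genes of dividing cells and markers of other cells also moved with the litters, as given above, and their part in the readouts was not tested.

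Amotl2, a direct YAP target whose product also binds YAP, separated the litters without overlap. It measured 103.0 and 104.5 CPM in litter 1, 111.7 and 108.1 CPM in litter 2, 87.99 and 87.92 CPM in litter 3, and 68.6 and 73.9 CPM in litter 4. The highest litter was litter 2 and the lowest litter 4. It was lower in litter 4 by a log2 difference of -0.49 (SE 0.06, adjusted p = 0.00208), which passed in 17 of 17 alternative fits, and its range over litters of 0.62 (adjusted p = 0.000397) passed in 18 of 18. Litter 4 was also where Tead1 was lowest; with 4 litters, no relation between them was tested.

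Ankrd1, a stretch-responsive cardiac YAP target, varied widely inside litters. It measured 508.8 and 487.1 CPM in the male and female of litter 1, 627.7 and 185.1 CPM in litter 2, 358.9 and 283.2 CPM in litter 3, and 336.3 and 185.8 CPM in litter 4. The male was higher in each of the 4 litters. With no litter term the fitted log2 difference was 0.68 (SE 0.31), and the groups overlapped. With litter as a block it was 0.75 (SE 0.20), with an unadjusted p of 0.00254 and an adjusted p of 0.232 by edgeR. The range over litters was 1.03 (adjusted p = 0.0522), and it passed in 10 of 18 alternative fits, among them those without the male (1.23, adjusted p = 0.000418) and the female of litter 2 (1.11, adjusted p = 0.000439). Ankrd1 was higher in litter 1 by a log2 difference of 0.73 (SE 0.21, adjusted p = 0.0425). That call was lost with DESeq2 (0.74, adjusted p = 0.292), without a sex term (0.62, adjusted p = 0.271), without the female of litter 1 (0.24, adjusted p = 0.703), the male of litter 3 (0.67, adjusted p = 0.055), the male (0.76, adjusted p = 0.0503) or female of litter 4 (0.70, adjusted p = 0.0909) and litter 4 (0.57, adjusted p = 0.141).
The matricellular genes Ccn2 (Ctgf in the table) and Ccn1 (Cyr61 in the table), widely used as YAP targets, did not pass. Without a filter on low counts their ranges hardly changed (0.79 and 0.38 with and without it). The far lower adjusted p of that fit, given below, therefore does not reflect a larger difference between litters. Ccn2 measured 68.2 ± 25.0 CPM (SD, n = 8) with a range of 0.79 (adjusted p = 0.0863), and it passed without a filter on low counts (0.79, adjusted p = 7.89e-18), without the male (0.85, adjusted p = 0.00307) or female of litter 2 (1.15, adjusted p = 0.000747), the female of litter 3 (1.05, adjusted p = 0.0158), litter 2 (0.77, adjusted p = 0.0024) and litter 3 (0.80, adjusted p = 0.0438). Ccn1 measured 38.6 ± 8.64 CPM with a range of 0.38 (adjusted p = 0.374), and it passed without the male (0.69, adjusted p = 0.0104) or female of litter 3 (0.83, adjusted p = 0.0021), without litter 3 (0.39, adjusted p = 0.0359) and without a filter on low counts (0.38, adjusted p = 0.000738).
Igfbp3, which binds insulin-like growth factors, was low in level and highest in litter 2, at 2.95 and 3.06 CPM against 0.344 to 1.40 CPM elsewhere. Its range of 2.74 (adjusted p = 0.000801) passed in 17 of 17 alternative fits. In litter 3 Igfbp3 was lower, with a log2 difference of -1.65 (adjusted p = 0.00645). Of 8 markers each, 8 endothelial, 6 fibroblast and 3 mural ones were also called higher in litter 2. In litter 3, 5, 6 and 4 of them were called lower. Fibroblast markers were also called higher in litter 1 (3 of 8) and litter 4 (6 of 8), where Igfbp3 was not called. The part of these markers in the differences of Igfbp3 was not tested. The call of Igfbp3 in litter 3 was lost without its female (-1.47, adjusted p = 0.0705) and without litter 2 (-1.12, adjusted p = 0.0728). Dock5, an exchange factor for Rac, was highest in litter 1, at 6.90 and 6.62 CPM against 3.51 to 6.07 CPM elsewhere, with a range of 0.73 (adjusted p = 0.0271). That call was lost with DESeq2 (0.74, adjusted p = 0.0879), without the male (0.67, adjusted p = 0.139) or female of litter 1 (0.78, adjusted p = 0.0872), the male of litter 4 (0.74, adjusted p = 0.0526) and litter 1 (0.43, adjusted p = 0.223).

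The genes whose levels followed a member most closely over the 8 libraries were sought among the other 13770 tested genes by Pearson's r of log2 CPM. The 3 nearest to Tead1 were Hipk2 (r = 0.988), Tet1 (r = 0.985) and Dst (r = 0.977). Each of them was lowest in litter 4, as Tead1 was, with Hipk2 at 31.0 and 27.3 CPM there against 48.1 to 71.5 CPM elsewhere. The 3 nearest to Wwtr1 were Tecrl (r = 0.988), Pramef8 (r = 0.987) and Rfx3 (r = 0.979), each highest in litter 3. Tecrl, for example, measured 63.5 and 72.2 CPM in litter 3 and 34.2 to 46.9 CPM elsewhere. Those nearest to Yap1 were Tnfsf12 (r = 0.953), Gnal (r = 0.945) and Gltp (r = 0.940), of which Tnfsf12 and Gnal had few counts. The 8 points behind each r share litters and scaling, and the genes were picked as the highest of many, so these values describe likeness of pattern only.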

How the data were processed

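RNA was measured in 8 libraries of purified cardiomyocytes by single-end sequencing. The labels call the molecule polyA RNA but name a stranded kit for total RNA, and the sources used here do not settle which applies. The authors deposited raw read counts per gene symbol, with reads aligned by STAR 2.7.3a to mm10 per the submitters' processing notes; the counting program, annotation and strand setting are not given in the sources used here. Of the 48440 entries, 27 names had been turned into dates by a spreadsheet, none of them a member. Genes were kept by filterByExpr on sex (13771), scaled by TMM and tested with edgeR 4.0.16 in R 4.3.3, with Benjamini-Hochberg adjustment over all tested genes and a threshold of 0.05. Sexes were compared as male minus female with no litter term (6 residual degrees of freedom). Litters were compared by an F test of 3 coefficients in a model with sex (3 residual degrees of freedom), then each against the mean of the other 3. Standard errors come from the log2 difference and F. Positions and transcript lengths came from GENCODE M21 on GRCm38, the assembly also called mm10. CPM used TMM-scaled library sizes, so a difference is relative to the bulk of genes.

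Litter numbers in the labels pair the libraries: gene-wise deviations of the male and female of the same litter correlated at r = 0.367 to 0.696, against -0.482 to 0.270 for other pairs. Each library is 1 heart, and p-values measure the spread between these hearts. No libraries were repeats: counts of any same-sex pair differed beyond sampling noise. The scripts were tested on simulated data. Alternatives were DESeq2 1.42.0, other scalings and filters, the litter block, no sex term, each library or litter left out, and other transcript lengths. The members and lists were chosen with earlier results of these data known. Named genes were all members, 5 fixed regulators (Nf2, Sav1, Mob1a, Mob1b, Vgll4), 3 fixed readouts (Ccn1, Ccn2, Ankrd1), the 3 genes of each list called by litter with the widest range, and the 3 genes nearest in pattern to Yap1, Wwtr1 and Tead1. Amotl1 was described outside this rule, after its values were seen.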

Additional observations from a re-analysis of the deposited data

Results flagged for a closer look

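The male of litter 4 stood apart for Stk4, at 21.8 CPM against 28.1 to 29.1 CPM in the other 3 males; its gap of 0.87 of the range was above Dixon's 95% critical value for 4 samples. Of 26 groups of 4 libraries examined, 1 had such a library, and chance alone gives about 1.3. The female of litter 4, at 23.3 CPM, was also the lowest of the females.

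For Yap1 the sexes went opposite ways in litter 4: its male, at 96.9 CPM, was above the other 3 males, and its female, at 86.5 CPM, was below the other 3 females. This difference between the sexes was not tested.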

How the results depend on the processing

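Over 77 results and 1315 values under alternatives, 1095 stayed the same, 116 lost a call, 36 gained one, 48 moved and 20 changed sign. For values of single genes, the same means the same direction and side of the threshold. Counts of genes and shares per kb have no direction. They were the same if near the main value and moved if not. A range over litters has no sign to change. Changes of sign were found only in the differences between males and females, none of which passed the test: with 1 library left out these ran from -0.0049 to 0.064 for Yap1, -0.045 to 0.11 for Wwtr1, -0.049 to 0.13 for Tead1, -0.18 to 0.045 for Tead2, -0.45 to 0.35 for Tead4, -0.056 to 0.056 for Lats1 and -0.039 to 0.11 for Lats2. Without litter 4 they were -0.015 for Yap1, -0.026 for Wwtr1 and -0.029 for Lats1, and without litter 3 -0.011 for Lats1. With litter as a block, 29 genes in all were called by sex, and the block changed no call of a member.

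Members called by litter numbered 3 without litter 1 and 4 to 7 with 1 library left out. In litter 1 they numbered 2 without litter 4 and 1 to 4 with 1 library left out; in litter 2, 1 with library size, 1 without a filter and 1 without litter 1; in litter 3, 2 without litter 1 and 0 to 4 with 1 library left out; in litter 4, 2 with DESeq2, 2 without litter 1 and 1 to 3 with 1 library left out. DESeq2 gave Tead4 no adjusted p in litters 1 and 4. Called regulators numbered 5 without litter 3 and 6 to 10 with 1 library left out, and called readouts 11 without a filter.

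Over all genes, litter called 1899 without litter 3. Litter 1 called 2906 without litter 2, 977 without litter 3 and 359 to 1869 with 1 library left out. Litter 2 called 365 without a sex term, 1249 without a filter, 350 with a mean of at least 50 counts, 1407 without litter 1, 271 without litter 3 and 153 to 755 with 1 library left out. Litter 3 called 1704 to 3791 and litter 4 called 322 to 1302 with 1 library left out, and litter 4 called 834 without a sex term. Fits that left out libraries had fewer samples; the cause of the other changes was not tested.

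Shares per kb depended on the transcript length. By the longest transcript, Tead1 made up 44.7% of the TEAD level, and by mean length 54.3%. Stk4 made up 44.57% of Stk3 and Stk4, and 54.93% by mean length, 57.1% by the union of exons and 41.58% by the longest protein-coding transcript. Wwtr1 made up 48.57% of Yap1 and Wwtr1, and 27.21%, 61.91% and 42.72% by the same lengths. Fits without litters 1, 2 or 4 and the protein-coding length were chosen after seeing the data. Depth limited Tead4, with 4 to 36 counts a library, and 2 hearts a litter limited every litter comparison.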
